A study of Mus musculus with 123 samples.

Results

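Mouse embryos that lacked Oct4 from the oocyte onwards were compared at the morula and at the early inner cell mass (ICM) stage, to see which part of the change between these stages proceeded without Oct4. The samples were chosen by genotype and stage alone: 8 Oct4-KO morulae and 8 Oct4-KO early ICMs, 16 of the 123 embryos profiled, each sequenced singly. Oct4-KO embryos were maternal-zygotic knockouts, in which the floxed exons 2 to 5 had been deleted in the oocyte by Zp3-Cre and the paternal allele was null. Their references were 8 Oct4 Ctrl morulae and 8 Oct4 Ctrl early ICMs, which shared the maternal deletion but carried an intact paternal allele, and 16 Sox2 Ctrl embryos of the same stages from the parallel Sox2 line, which lacked the maternal Sox2 allele through Zp3-Cre and kept an intact paternal one. Sox2-KO embryos, maternal-zygotic knockouts of that line, are used for the stage position alone and enter the shared estimate of the spread. Knockout alleles carried a fluorescent reporter, by which the embryos were told apart, and the dams (strain label B6C3F1) were superovulated. Morulae were collected at E2.75 and sequenced whole. Early ICMs (E3.75) came from embryos that were cultured from E2.5 with 1 µM PD0325901, an inhibitor of the MEK kinases (MEKi) that blocks primitive endoderm formation, and were isolated by immunosurgery, which lyses the trophectoderm. Developmental stage, culture, MEKi and removal of the trophectoderm therefore changed together between the groups and cannot be told apart. In these bulk profiles, fewer cells of a type and less RNA per cell cannot be told apart either.

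Oct4, encoded by Pou5f1, is a POU-domain transcription factor that, often together with the HMG-box factor SOX2, binds enhancers of pluripotency genes. At the morula stage the cells of the embryo polarise and begin to divide into an outer layer, the future trophectoderm, and inner cells, the ICM. The ICM later separates into the epiblast, which founds the body, and the primitive endoderm. Oct4 is known to be needed for the primitive endoderm and for keeping the ICM from turning on trophectoderm genes, and embryos without it still form a blastocyst.

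Each embryo was measured by counting unique molecular identifiers (UMIs), tags that mark single cDNA molecules. Totals ranged from 903051 to 1159617 UMIs in the Oct4-KO morulae and from 817029 to 960732 in the Oct4-KO early ICMs, so that 1 UMI stood for 0.862 to 1.27 CPM (UMIs per 1e6 of the scaled total). Between 12716 and 14169 genes were detected per Oct4-KO embryo. The targeted gene followed the labels. Pou5f1 (ENSMUSG00000024406) had 3 UMIs in all 8 Oct4-KO morulae together, all in embryo 5, and 7 in the 8 Oct4-KO early ICMs, against 163 and 550 in the Ctrl groups. Its change in Oct4-KO rested on these few UMIs (ratio 2.71, 95% Poisson interval 0.618 to 16.2, counting error only) and was not called (adjusted p = 0.265, edgeR quasi-likelihood test), although it was called in the fit without embryo 5 of the morulae (3.05 on the log2 scale, adjusted p = 0.00788). Summed over 8 epiblast markers, the Oct4-KO early ICMs held 1240 to 1900 CPM (median 1390) and the Oct4-KO morulae 634 to 1010 (median 852), while the Ctrl early ICMs held 1970 to 3090 (median 2210). These markers of the labelled tissue were thus present, at a summed level below that of every Ctrl early ICM. Single markers differed in their early ICM medians in Oct4-KO and Ctrl. Sox2 (135 and 125 CPM) and Nanog (896 and 752) were not lower in Oct4-KO. Utf1 (19 and 138), Esrrb (36.2 and 170), Klf4 (260 and 603) and Tdgf1 (14.8 and 303) were lower. The 9 trophectoderm markers summed to 410 to 1080 CPM in the Oct4-KO morulae and 488 to 1330 in the Oct4-KO early ICMs. All 9 had UMIs in the early ICMs, and Gata2 was at 0 in the morulae. Trophectoderm markers were thus present in the isolated ICMs, and their part in the results below was not tested. The 6 primitive endoderm markers summed to 299 to 589 and 283 to 543 CPM, with Sox7 and Foxa2 at 0 in both groups.

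Between morula and early ICM, the Oct4-KO embryos covered part of the distance that Oct4 Ctrl embryos covered along an axis taken from control embryos. Such an axis holds stage, culture, MEKi and removal of the trophectoderm together. The axis was drawn in the other line, from the genes that rose and fell between Sox2 Ctrl morulae and early ICMs, and was scaled so that the mean of the Oct4 Ctrl morulae was 0 and that of the Oct4 Ctrl early ICMs 1. On this scale the Oct4-KO morulae stood at -0.0866 ± 0.061 (SD, n = 8; range -0.174 to 0.0302), inside the range of the Oct4 Ctrl morulae (-0.173 to 0.161) but for the lowest embryo. The Oct4-KO early ICMs stood at 0.634 ± 0.0677 (range 0.537 to 0.71). None of them reached the lowest Oct4 Ctrl early ICM (0.881), and none overlapped with a morula. Early ICMs without Sox2 stood at 1.28 (range 1.2 to 1.39), within the range of the Sox2 Ctrl early ICMs (1.07 to 1.58). The Oct4-KO early ICMs lay below all of these on this axis, whose genes were chosen in Sox2 Ctrl. On an axis of the genes called in Oct4 Ctrl instead, the Oct4-KO early ICMs ranged from 0.661 to 0.784, still below the Oct4 Ctrl early ICMs (0.935 to 1.06), but overlapped with the Sox2 Ctrl early ICMs (0.701 to 0.976).

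**Figure D1:**
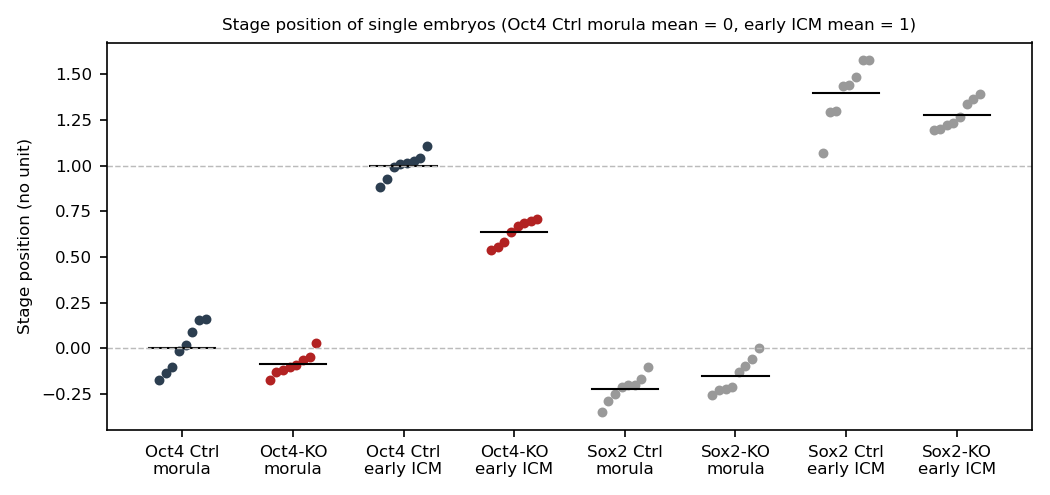
Stage position of single embryos (vertical axis, no unit; 0 and 1 are the means of Oct4 Ctrl morulae and early ICMs) in 8 groups (horizontal axis) of 8 embryos, with a point per embryo and a line at each group mean. The Oct4-KO early ICMs sit between 0.537 and 0.71, above every morula and, on this axis of genes chosen in Sox2 Ctrl, below every other early ICM; on an axis of Oct4 Ctrl genes they overlapped with the Sox2 Ctrl early ICMs.

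Gene by gene, the stage change remained extensive without Oct4. A gene was called changed when its adjusted p was below 0.05 and its level changed at least 2-fold (1 on the log2 scale). Of 14053 genes tested, 3700 (26.3%) were called in Oct4-KO, with 1783 (12.7%) higher and 1917 (13.6%) lower in the early ICM. In Oct4 Ctrl 4080 genes (29%) were called, 1988 (14.1%) higher and 2092 (14.9%) lower. With totals alone as the scaling the balance turned, to 2012 higher and 1689 lower in Oct4-KO and 2260 and 1831 in Ctrl. No embryo was shared between these comparisons. In both genotypes 2344 genes were called in the same direction, 1062 up and 1282 down, which made up 63.4% of the Oct4-KO calls and 57.5% of the Ctrl calls, and 16 genes were called in opposite directions. The change itself differed between the genotypes, by a test of the difference, in 462 genes (3.29%), with the Oct4-KO change the higher in 220 (1.57%) and the lower in 242 (1.72%). A stricter test, of whether the difference itself exceeds 2-fold, called 23, with the Oct4-KO change the higher in 6 and the lower in 17. Most genes called in 1 genotype alone were not called for this difference: 140 of the 1340 called in Oct4-KO alone were, and 191 of the 1720 called in Ctrl alone. In terms of single embryos, all 8 Oct4-KO early ICMs lay above all 8 Oct4-KO morulae in 786 of the genes tested (5.59%) and below them in 1093 (7.78%).

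Because genes chosen in Oct4 Ctrl would favour Ctrl, stage genes were also chosen in Sox2 Ctrl. There 4489 genes were called (31.9%), 2422 up (17.2%) and 2067 down (14.7%). Of the 2422 rising genes, 770 (31.8%) also rose in Oct4-KO and 1141 (47.1%) in Oct4 Ctrl. Of the 2067 falling genes, 833 (40.3%) fell in Oct4-KO and 1061 (51.3%) in Oct4 Ctrl. The opposite direction was called for 85 rising and 56 falling genes in Oct4-KO, and for 33 and 24 in Oct4 Ctrl. The median changes of the rising genes were 1.13 in Oct4 Ctrl and 0.76 in Oct4-KO on the log2 scale, and those of the falling genes -1.22 and -0.87, beside medians near 0 over all genes tested. A rising or falling gene was classed as kept when Oct4-KO called it in the same direction and the 95% interval of the difference from Oct4 Ctrl lay within a factor of 2 either way. This held for 126 rising and 128 falling genes. A gene was classed as weaker when the difference was called against its direction in Sox2 Ctrl. That held for 111 rising and 83 falling genes. Among the 111, 88 were not called in Oct4-KO, 20 fell and 3 still rose; among the 83, 52 were not called, 13 rose and 18 still fell. A further 14 and 8 genes changed more strongly in Oct4-KO. The remaining 2171 rising and 1848 falling genes fell in none of these classes, either because the interval of the difference was too wide or because Oct4-KO did not call them in the direction of Sox2 Ctrl. The kept class asks for narrow intervals and so takes well-expressed genes. In all, 1341 genes were called in the same direction in Oct4-KO, Oct4 Ctrl and Sox2 Ctrl (626 up, 715 down), 36.2% of the Oct4-KO calls. The reference lines themselves did not match throughout: 32 genes called alike in both Oct4 genotypes went the opposite way in Sox2 Ctrl, among them Cox8a, a subunit of cytochrome oxidase (-1.36 in Oct4-KO, -1.66 in Oct4 Ctrl and 1.76 in Sox2 Ctrl), and Atp5e of ATP synthase (-1.22, -1.06 and 1.65).

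**Figure D2:**
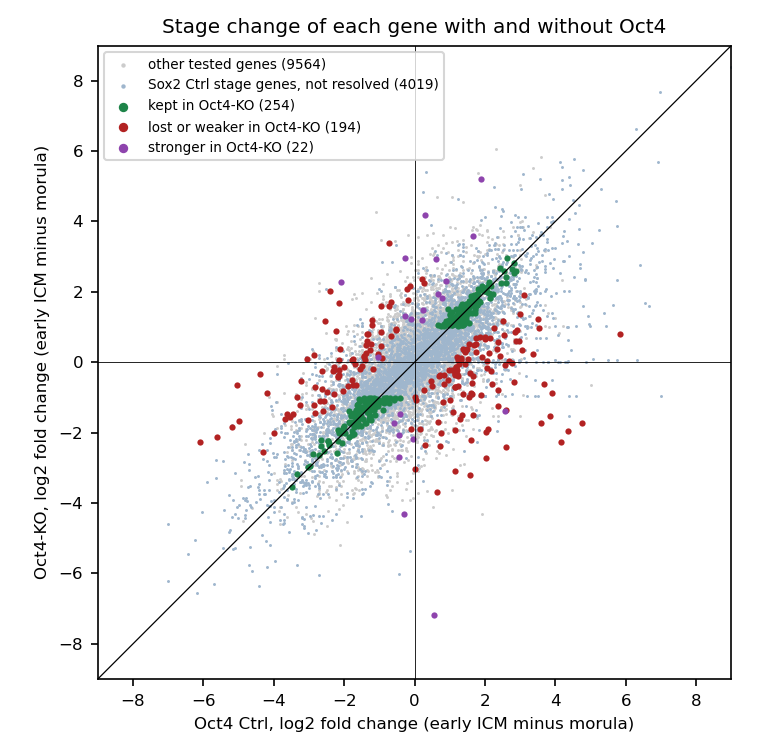
Log2 fold change from morula to early ICM of every tested gene in Oct4 Ctrl (horizontal axis) and Oct4-KO (vertical axis), with a diagonal where both are equal. Green points mark the 126 rising and 128 falling genes classed as kept, close to the diagonal, and red points the 111 and 83 classed as weaker, which lie away from the diagonal, against the direction of their change in Sox2 Ctrl.

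The promoters of a pair of genes from each of these classes are shown, to set the sequence next to genes whose stage change was lost without Oct4 (Tdgf1, Utf1) and genes whose change was kept (Ccne1, Tuba4a). Each is the 150 bases before the start of the gene in RefSeq (build GRCm38.p6), written 5′ to 3′ on the strand of the gene: Tdgf1 at chr9:110946159-110946308 (minus strand), Utf1 at chr7:139943706-139943855 (plus), Ccne1 at chr7:38107491-38107640 (minus) and Tuba4a at chr1:75219295-75219444 (minus). Capitals mark GC boxes, GGGCGG on either strand, the core of sites for SP and KLF factors. The octamer bound by POU factors, ATGCAAAT on either strand, was searched as well.
Tdgf1: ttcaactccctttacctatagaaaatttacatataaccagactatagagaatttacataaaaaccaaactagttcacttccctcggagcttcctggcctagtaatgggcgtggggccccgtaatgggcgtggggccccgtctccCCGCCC
Utf1: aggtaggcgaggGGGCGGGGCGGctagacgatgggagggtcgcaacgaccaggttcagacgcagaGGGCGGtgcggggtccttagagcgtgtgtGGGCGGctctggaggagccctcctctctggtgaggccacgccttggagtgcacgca
Ccne1: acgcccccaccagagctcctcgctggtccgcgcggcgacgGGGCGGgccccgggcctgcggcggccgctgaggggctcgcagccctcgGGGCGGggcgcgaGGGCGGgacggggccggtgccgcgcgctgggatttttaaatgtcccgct
Tuba4a: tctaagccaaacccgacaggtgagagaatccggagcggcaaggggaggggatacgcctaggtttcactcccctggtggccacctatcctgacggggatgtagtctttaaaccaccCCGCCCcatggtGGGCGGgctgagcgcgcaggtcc

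Tdgf1 held 1 GC box, Utf1 4, the first pair of which overlap, Ccne1 3 and Tuba4a 2. None of the 4 windows held the octamer letters, which says nothing of enhancers farther away. Over all 27025 RefSeq promoters of this length, 277 (1.02%) held the octamer and 29% a GC box. Over the 10094 tested genes that matched the table, the shares were 0.842% and 53.2%. Of the kept genes that matched, 0 of 101 rising and 1 of 105 falling promoters held the octamer, and 59.4% and 58.1% held a GC box. Of the weaker genes that matched, 1 of 86 rising and 0 of 65 falling promoters held the octamer, and 68.6% and 49.2% held a GC box. Matching was incomplete in every set. Among rising and falling genes, 77.5% and 78.3% of the weaker and 80.2% and 82% of the kept matched. These shares were not compared in a test.

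The kept genes described here are the 6 largest changes in each direction. Tuba4a, which encodes an alpha-tubulin, went from 8.22 to 25.2 CPM (lowest and highest; median 14.6) in the Oct4-KO morulae to 79.1 to 137 CPM (median 107) in the Oct4-KO early ICMs, a log2 fold change of 2.82 (SE 0.28, adjusted p = 1.78e-15). The groups did not overlap, and the change in Oct4 Ctrl was 2.83. Baz2b, a bromodomain chromatin protein, rose from a median of 7.28 CPM (5.34 to 16.1) to 71 CPM (38.5 to 104), a log2 fold change of 2.97, again with no overlap. Slc44a1, a choline transporter, rose from 31 to 181 CPM in median, and Sntb2, a syntrophin of the dystrophin complex, from 8.11 to 53.2 CPM. Tes, a LIM-domain protein of focal adhesions, and Zc3hav1, an antiviral RNA-binding protein, also rose (2.61 and 2.60 on the log2 scale). Their changes in Oct4 Ctrl were 2.54 and 2.88. The levels of Tes differed all the same, with 55.7 to 137 CPM in the Oct4-KO and 291 to 392 CPM in the Ctrl early ICMs, and 5.63 to 27.4 CPM against 33 to 95.2 CPM in the morulae. The kept class thus concerns the change between stages, not the level.

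Among falling genes, Ccne1 (cyclin E1, which drives entry into S phase) went from 226 to 389 CPM (median 281) in the Oct4-KO morulae to 4.49 to 52.5 CPM (median 25.4) in the Oct4-KO early ICMs. Its log2 fold change was -3.55 (SE 0.27, adjusted p = 8.82e-20) in Oct4-KO and -3.48 in Oct4 Ctrl, with no overlap between the Oct4-KO stages. Tfrc, the transferrin receptor, fell from a median of 472 CPM (193 to 692) to 60.8 CPM (28.1 to 82.3), by 2.97 on the log2 scale against 3.02 in Ctrl. Sox15, an HMG-box factor related to SOX2, went from 201 to 411 CPM (median 311) to 22.8 to 68.6 CPM (median 36.1), with changes of -2.95 in Oct4-KO and -2.97 in Ctrl. For all 3, the 95% interval of the difference between the genotypes lay within a factor of 2 either way. Tmem50b, a small membrane protein, Cdk2ap1, an inhibitor of CDK2, and Tor2a, a torsin ATPase, fell by 3.16, 2.64 and 2.60 on the log2 scale, each with no overlap. Tuba4a and Sox15 overlap a neighbouring gene on the other strand in the annotation (Stk16 and Mpdu1), and since the strand setting of the counting was not given, reads of the pair cannot be told apart.

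The largest changes in Oct4-KO were, for the most part, also present in Ctrl. Aqp8, a water channel, had 1 UMI in the 8 Oct4-KO morulae together and 393 in the early ICMs, where it ranged from 9.06 to 112 CPM (ratio 456, 95% Poisson interval 81.4 to 18100). Klf6, a Krüppel-like factor, rose from a median of 4.23 CPM (1.19 to 23.1) to 238 CPM (83.1 to 427), a log2 fold change of 5.19 (SE 0.45) that was 4.20 in Oct4 Ctrl. Arid5b, a DNA-binding protein with an ARID domain, rose from 0.503 CPM (0 to 4.59) to 45.3 CPM (28.1 to 69.1), and Glrx, the thiol reductase glutaredoxin, from 8.07 CPM (3.27 to 40) to 223 CPM (171 to 364). The stages did not overlap for any of the 10 top rises, which was part of the rule that named them. Mical1 (an actin-oxidising enzyme), Dppa1, Slc22a5 (a carnitine transporter), Epha4 (an ephrin receptor) and the histone gene Hist1h2bc also rose in both genotypes, with log2 fold changes of 5.68, 5.52, 5.21, 4.65 and 5.54 in Oct4-KO. The Hist1h2bc value is uncertain because near-identical histone genes can share reads, and Mical1 overlaps Smpd2 on the other strand. Dppa1 and Slc22a5 varied among the early ICMs, each with 1 embryo at 255 CPM and medians of 33.8 and 41.8 CPM. For Arl4d, a small GTPase of the ARF family, the rise differed between genotypes: 5 UMIs became 207 in Oct4-KO, and the change was stronger than in Ctrl by 3.31 on the log2 scale (SE 0.96, adjusted p = 0.00945).

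At the other end, Exoc3l4, an exocyst-related gene, fell from 404 UMIs in the 8 Oct4-KO morulae (27.2 to 87.2 CPM) to 3 UMIs in the 8 early ICMs (ratio 0.00861, 95% Poisson interval 0.00177 to 0.0254). Tnfsf13b, which encodes the cytokine BAFF, fell from a median of 112 CPM (59.6 to 190) to 3.2 CPM (1.2 to 10), with changes of -4.81 in Oct4-KO and -5.28 in Ctrl. Exoc3l2 fell from 88.4 CPM (41.8 to 219) to 2.42 CPM (0 to 9.33). None of the 3 exceeded 20 CPM in any early ICM of either genotype. Dmrtb1 (a DM-domain factor), Epm2a (the glycogen phosphatase laforin), Tmem145, Fgf1 (a fibroblast growth factor), Aspg and Uncx (a homeobox factor) fell from 166 to 281 UMIs to 2 to 5, and their falls were called in Ctrl as well. Tead3, a partner of the Hippo effector YAP, fell from 232 UMIs in the Oct4-KO morulae to 5. In Ctrl it went from 50 to 10 UMIs, from a lower level in the morulae. The difference of -3.05 was not called (adjusted p = 0.0659), but was in the fit without embryo 5 of the early ICMs (-3.49, adjusted p = 0.0436).

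Of 27 naive pluripotency genes tested, 3 rose and 6 fell in Oct4-KO (median change 0), beside 12.7% and 13.6% of all genes, and 14 rose and 1 fell in Ctrl (median 1.02), beside 14.1% and 14.9%. The rises in Oct4-KO were near the share over all genes. These medians stand beside medians of -0.0141 and -0.000266 over all genes tested. The difference was called in 8, beside 3.29% of all genes, in all of them with the Oct4-KO change the lower. Sox2 went from 14.2 to 32.9 CPM (median 21.9) in the Oct4-KO morulae to 95.8 to 286 CPM (median 135) in the early ICMs, a 6.89-fold rise (log2 2.78, SE 0.31, adjusted p = 7.35e-13). Nanog, a homeobox factor of the naive epiblast, went from 153 to 262 CPM (median 194) to 683 to 1070 CPM (median 896), a 4.42-fold rise (log2 2.15, SE 0.23, adjusted p = 2.2e-12). Both genes thus rose in every Oct4-KO early ICM past every Oct4-KO morula. Their changes in Ctrl were 2.48 and 1.45, and the differences, 0.30 (95% interval -0.56 to 1.17) and 0.69 (0.04 to 1.35), were not called. The third, Jam2, an adhesion molecule, rose by 2.38 in Oct4-KO and 3.48 in Ctrl.

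Utf1 and Tdgf1 went the opposite way. Utf1, a chromatin-associated factor of pluripotent cells, went from 41.1 to 106 CPM (median 67.1) in the Oct4-KO morulae down to 8.71 to 36.2 CPM (median 19) in the early ICMs, a change of -1.92 (SE 0.25, adjusted p = 1.46e-10), while in Ctrl it rose from 65.5 to 138 CPM in median. The difference was -3.06 (SE 0.32, adjusted p = 4.75e-12). Tdgf1, which encodes the Nodal co-receptor CRIPTO, went from 42.7 to 134 CPM (median 79.5) to 6.74 to 29.8 CPM (median 14.8) without Oct4, and from 41.3 to 303 CPM in median in Ctrl. The stages did not overlap in Oct4-KO for either gene, and the Tdgf1 difference was -5.0 (SE 0.46, adjusted p = 2.37e-14). Esrrb, an orphan nuclear receptor, stayed between 19.4 and 77.9 CPM over all 16 Oct4-KO embryos with the stages overlapping (change -0.46, SE 0.24, adjusted p = 0.111), against a rise from 76.1 to 170 CPM in median in Ctrl (difference -1.49, adjusted p = 0.00163). In Sox2 Ctrl the change of Esrrb was 0.20. Fgf4, the growth factor that the epiblast sends to the primitive endoderm, did not pass the test in Oct4-KO (0.19) and rose by 2.44 in Ctrl (difference -2.25, adjusted p = 0.00778). Tdgf1 was counted in the Nodal and BMP list. The remaining naive genes with a called difference were Klf2 (-1.51), Morc1 (-4.30), Pecam1 (-3.63), Sap30 (-2.96) and Tdh (-1.77). Klf4, a Krüppel-like factor, had a difference of -1.02 that was not called (adjusted p = 0.0586), with an Oct4-KO change of 0.42 and a Ctrl change of 1.44. It was called in the fits without embryo 2, 7 or 8 of the morulae.

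**Figure D3:**
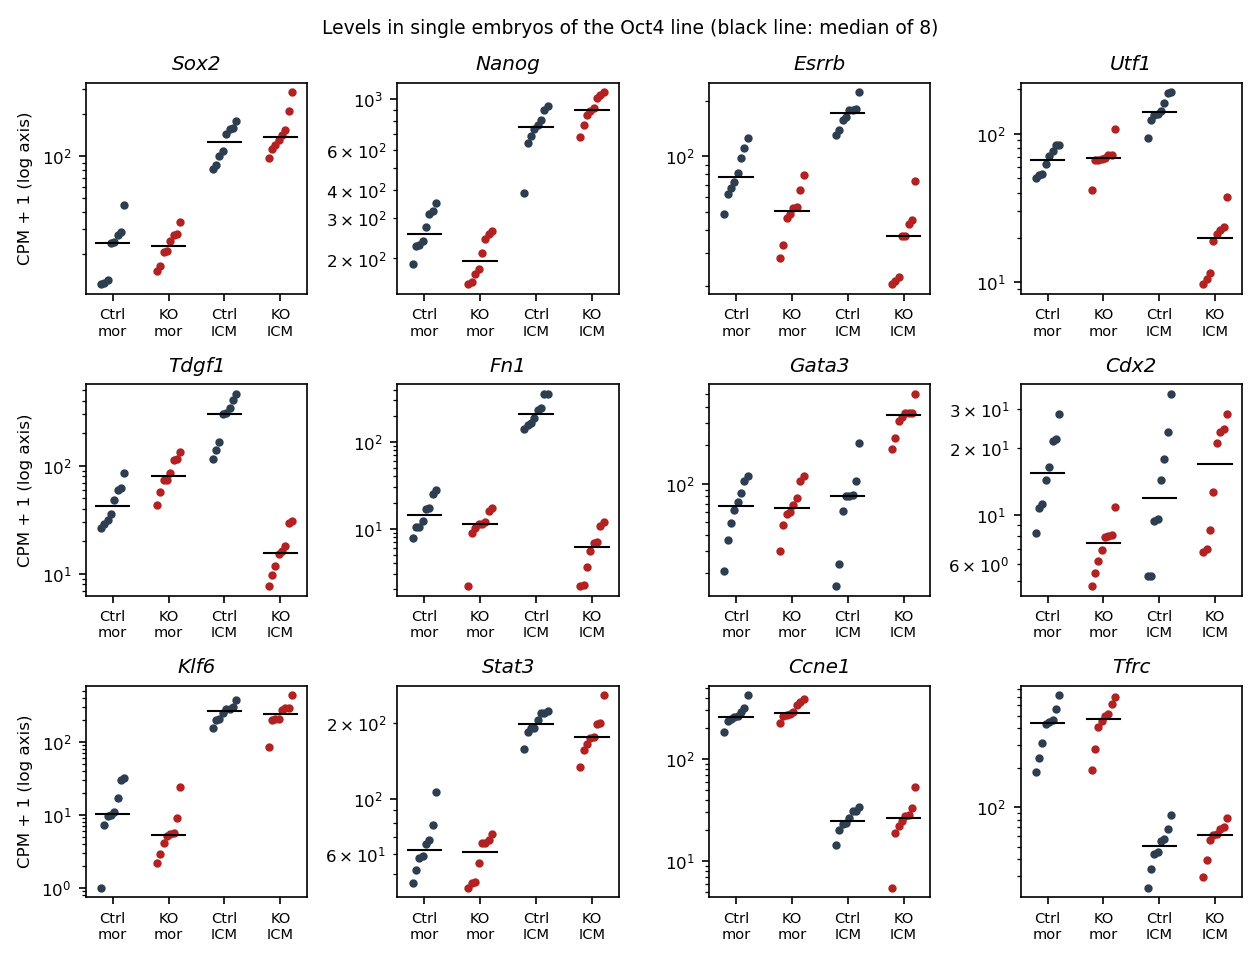
Levels of 12 genes in single embryos of the Oct4 line (vertical log axis, CPM + 1), with 8 embryos in each of the 4 groups (Ctrl and Oct4-KO, morula and early ICM) and a line at the median. Sox2, Nanog, Klf6 and Stat3 rose and Ccne1 and Tfrc fell in both genotypes, whereas Utf1 and Tdgf1 fell and Gata3 rose in Oct4-KO and not in Ctrl.

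Further genes whose rise was absent without Oct4 included Fn1, which encodes fibronectin. It stood at 1.19 to 16.4 CPM in the Oct4-KO morulae and 1.2 to 11 CPM in the early ICMs, with the stages overlapping, and at 139 to 356 CPM in the Ctrl early ICMs (difference -4.79, SE 0.52, adjusted p = 4.75e-12). Upp1, a uridine phosphorylase, had 17 and 28 UMIs in the Oct4-KO groups, against 26 and 1433 in Ctrl. Il6st, the gp130 subunit of the LIF receptor, had 1 UMI in each Oct4-KO group and so gave no fold, while in Ctrl it rose from 2 to 130 UMIs (difference not called, adjusted p = 0.25). Hnf4a, a nuclear receptor that overlaps Hnf4aos on the other strand, had 6 and 1 UMIs in Oct4-KO and 23 and 268 in Ctrl. None of these 4 genes exceeded 20 CPM in any Oct4-KO early ICM. Bcl3, a nuclear co-regulator of NF-kB, and Rnf125, a ubiquitin ligase, fell in Oct4-KO by 3.70 and 3.67 on the log2 scale, with no overlap of the stages, and had no called change in Ctrl. Morc1, which silences transposons in germ cells, went from 24 to 14 UMIs in Oct4-KO and from 21 to 269 in Ctrl. The Ctrl early ICMs ranged from 2.13 to 155 CPM (median 17.7), and Ctrl embryos were not left out in turn. Pecam1, an adhesion molecule on ICM cells, fell from 90 to 34 UMIs in Oct4-KO, a call that was lost in 7 of the 16 fits without 1 embryo (weakest value -1.01, without embryo 12 of the morulae) and whose direction turned in the 6 Oct4-KO embryos with shared replicate numbers (0.54), and rose from 67 to 333 UMIs in Ctrl.

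The largest differences in the other direction concerned genes that rose in Oct4-KO or stayed where Ctrl lost them. Car4, a membrane-bound carbonic anhydrase, rose from a median of 2.31 CPM (1.09 to 9.52) to 24.5 CPM (7.01 to 119) with the stages overlapping, against 3.74 and 2.21 CPM in Ctrl. Pianp, Gsta2 (a glutathione transferase) and Htra1 (a secreted serine protease) rose by 3.45, 3.68 and 2.98 on the log2 scale without overlap, and none of the 3 was called in Ctrl; Htra1 overlaps Fgfr2 on the other strand. Lrp2, the endocytic receptor megalin, had medians of 78.6 and 182 CPM in the Oct4-KO stages, which overlapped, while in Ctrl it fell from 139 to 17.4 CPM (difference 3.73, SE 0.55, adjusted p = 8.05e-07). Its rise in Oct4-KO fell short of a 2-fold change without embryo 18 of the early ICMs (0.95). Ak7, an adenylate kinase, and Nppb, a natriuretic peptide, had changes of -3.24 and -4.18 in Ctrl and were not called in Oct4-KO. The Nppb difference (3.31) was lost without embryo 5 of the early ICMs (1.99, adjusted p = 0.282), the embryo with the highest level.

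In the LIF and STAT3 list, 2 of 16 tested genes rose and 5 fell in Oct4-KO, beside 12.7% and 13.6% of all genes, so that the rises were near the share over all genes. In Ctrl 4 rose and 5 fell, and the medians were -0.128 and 0.231. Stat3, the transducer of the LIF signal, was kept: it went from 43 to 71.2 CPM (median 59.9) to 133 to 257 CPM (median 175), a log2 fold change of 1.67 (SE 0.17) against 1.60 in Ctrl. No early ICM overlapped with a morula. Stat3 overlaps Stat5a on the other strand. Lifr, the LIF-binding subunit, rose from 7 to 101 UMIs, so that of the receptor pair Lifr rose in Oct4-KO while Il6st had 1 UMI. Socs3, an inhibitor of STAT3 signalling, fell in both genotypes (-2.80 and -1.77). In the Nodal and BMP list, 3 of 21 rose and 4 fell in Oct4-KO, 5 and 5 in Ctrl, beside 12.7% and 13.6% of all genes in Oct4-KO and 14.1% and 14.9% in Ctrl, so that the rises in Oct4-KO were near the share over all genes. In this list 4 differences were called (3.29% over all genes), in all of them with the Oct4-KO change the lower. Id3, an inhibitor of bHLH factors that BMP signals induce, went from 263 to 561 CPM (median 401) to 8.98 to 46.3 CPM (median 32.3), by -3.70 against -1.72 in Ctrl (difference -1.98, adjusted p = 0.00103) and 0.38 in Sox2 Ctrl. Of the 13 formative epiblast genes, 5 could be tested. Foxd3 rose from 0 to 37 UMIs (at least 14.3-fold, from 3 UMIs over the group) and Otx2 by 3.17, while Pou3f1 fell from 51 to 3 UMIs, and no difference was called.

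Of 19 trophectoderm factors tested, 9 rose and 2 fell in Oct4-KO, beside 12.7% and 13.6% of all genes, whereas 4 rose and 4 fell in Ctrl, with medians of 0.778 and 0.269. These counts were not compared in a test. The difference was called for Gata3 alone. Gata3, a GATA factor of the trophectoderm, went from 29.1 to 114 CPM (median 63.4) in the Oct4-KO morulae to 184 to 503 CPM (median 342) in the early ICMs, a 4.73-fold rise with no overlap (log2 2.24, SE 0.33, adjusted p = 2.06e-08). In Ctrl the medians were 66 and 79 CPM, and the difference was 1.97 (SE 0.47, adjusted p = 0.00488). Cdx2, the caudal homeobox factor of the trophectoderm, rose from a median of 6.41 CPM (3.8 to 9.81) to 15.9 CPM (5.81 to 27.6) in Oct4-KO, with overlap, by 1.30 (SE 0.44, adjusted p = 0.00822). In Ctrl the Cdx2 medians were 14.5 CPM in the morulae and 10.9 CPM (4.28 to 34.3) in the early ICMs. The Oct4-KO embryos thus rose from a lower median into the range of the Ctrl early ICMs. The Cdx2 difference from Ctrl was 1.45 (adjusted p = 0.132) and was not called. Eomes, a T-box factor, passed the p threshold but not the 2-fold one (0.78, adjusted p = 0.0363). In Sox2 Ctrl, Gata3, Cdx2 and Eomes changed by -1.72, -2.82 and -1.62. Hand1, a bHLH factor of trophoblast giant cells, fell in Oct4-KO and in Ctrl (-1.17 and -1.34). Of 31 epithelial and transport genes of the trophectoderm, 11 rose and 2 fell in Oct4-KO, against 8 and 6 in Ctrl. The 2 that fell, Cldn6 (-2.47) and Krt7 (-1.76), fell in Ctrl as well. The Oct4-KO change was called the higher in 3 and the lower in 1, beside 3.29% of all genes called for the difference. The lower was Ezr (-2.28, adjusted p = 0.0295), with early ICM medians of 8.94 CPM in Oct4-KO and 272 CPM in Ctrl. Its call was lost in 4 of the 16 fits without 1 embryo. Fabp3, a fatty acid binding protein, rose from a median of 646 CPM (319 to 739) to 2360 CPM (1410 to 4660) in Oct4-KO, while the medians in Ctrl were 307 and 301 CPM (difference 2.16, adjusted p = 0.00277). Dsg2, a desmoglein, rose alike in both (3.10 and 3.20). The 9 trophectoderm markers, which include Gata3, Cdx2 and Eomes, summed to a median of 895 CPM in the Oct4-KO morulae and 845 CPM in the Oct4-KO early ICMs, against 761 and 504 CPM in Ctrl. Their sum was thus no higher in median in the Oct4-KO early ICMs than in the morulae, it was above Ctrl in median at both stages, and the ranges of all 4 groups overlapped. Whether residual trophectoderm cells had a part in these levels was not tested.

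Of 20 Hippo pathway genes, 3 rose and 4 fell in Oct4-KO, close to the shares over all genes (12.7% and 13.6%), and 4 and 5 in Ctrl. The targets of YAP, Ccn2 and Ccn1, which encode matricellular proteins, rose by 4.08 and 2.63 in Oct4-KO and by 4.39 and 3.39 in Ctrl, and 1 difference was called in the list, with the Oct4-KO change the higher (Wwc1, an upstream regulator, 1.63; not called in 3 of the 16 fits without 1 embryo, with the weakest value 1.52 without embryo 5 of the early ICMs). Of 16 primitive endoderm genes tested, 4 rose and 3 fell in Oct4-KO, and 5 and 5 in Ctrl. The Oct4-KO change was called the higher in 2 and the lower in 1, beside 3.29% of all genes called for the difference. Among them were Lrp2 (3.73) and Hnf4a (-5.32), given above. Gata6, the factor that marks the primitive endoderm and its precursors, was at 295 to 581 CPM (median 488) in the Oct4-KO morulae and 275 to 543 CPM (median 410) in the early ICMs, where the stages overlapped (change -0.15, SE 0.25, adjusted p = 0.657). Of 21 basement membrane genes, 11 rose and 3 fell in Oct4-KO, beside 12.7% and 13.6% of all genes, and 10 rose and 2 fell in Ctrl. The difference was called in 2, with the Oct4-KO change the lower: Fn1, given above, and Itga5, a fibronectin-binding integrin (-1.81; not called in 4 of the 16 fits without 1 embryo, with the weakest value -1.59 without embryo 10 of the early ICMs). Lama1, a laminin chain, went from 1 to 99 UMIs, and Itga6, the laminin-binding integrin alpha 6, rose by 3.87 in Oct4-KO and 3.22 in Ctrl. The median of the list was 1.00 in Oct4-KO and 0.901 in Ctrl. The 18 MAPK targets, whose pathway MEKi blocks, held 6 rises and 3 falls in Oct4-KO and 6 and 5 in Ctrl. Egr1, an immediate early gene, rose from 4 to 63 UMIs and Fosl1, an AP-1 subunit, fell from 31 to 1; Fosl1 overlaps Ccdc85b on the other strand. Etv5, an ETS factor downstream of FGF signals, rose by 2.53 in Ctrl and was not called in Oct4-KO (difference -1.77, adjusted p = 0.00947).

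Of 21 maternal and oocyte transcripts tested, 10 fell and 1 rose in Oct4-KO (median -1.64), beside 13.6% and 12.7% of all genes, and 12 fell and 3 rose in Ctrl (median -2.14), beside 14.9% and 14.1%. No difference was called. Zp3, a zona pellucida protein, went from 99 to 7 UMIs and Oosp1, an oocyte-secreted protein, from 103 to 8. The gene that rose, Ooep of the subcortical maternal complex, changed by 2.02 in Oct4-KO and 2.46 in Ctrl.

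In the metabolic lists the genes called higher were fewer in Oct4-KO than in Ctrl, by counts that were not compared in a test. The shares over all genes were 12.7% higher and 13.6% lower in Oct4-KO, and 14.1% and 14.9% in Ctrl; the rises of the citric acid cycle list in Oct4-KO were near them. Of 22 glycolysis and pyruvate genes, 5 rose and 4 fell in Oct4-KO (median 0.339), and 12 rose and 3 fell in Ctrl (median 1.04). Pkm, the pyruvate kinase of growing cells, was kept (1.90 and 1.68), and Slc2a1, the glucose transporter GLUT1, rose by 2.66 and 2.38. Slc2a3, the transporter GLUT3, rose by 1.81 in Oct4-KO and not in Ctrl (difference 1.82, adjusted p = 0.00651). Of 17 genes of the citric acid cycle and its shuttles, 2 rose in Oct4-KO and 5 in Ctrl, and none fell. Mdh1, a malate dehydrogenase, was kept (2.17 and 1.91), while Idh1, an isocitrate dehydrogenase, rose in Ctrl alone (difference -1.13, adjusted p = 0.00277). Of 24 cholesterol genes, 1 rose and 8 fell in Oct4-KO, and 4 and 5 in Ctrl. The falls in Oct4-KO included Sqle, squalene epoxidase (-2.59), and Mvd, a mevalonate enzyme (-2.11), which fell in Ctrl too (-1.86 and -1.28). Of 21 glutathione and one-carbon genes, 4 rose and 4 fell in Oct4-KO, and 9 and 3 in Ctrl. Ahcy, which clears S-adenosylhomocysteine, rose by 2.12 in Ctrl and was not called in Oct4-KO (difference -1.85, adjusted p = 0.0013).

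**Figure D4:**
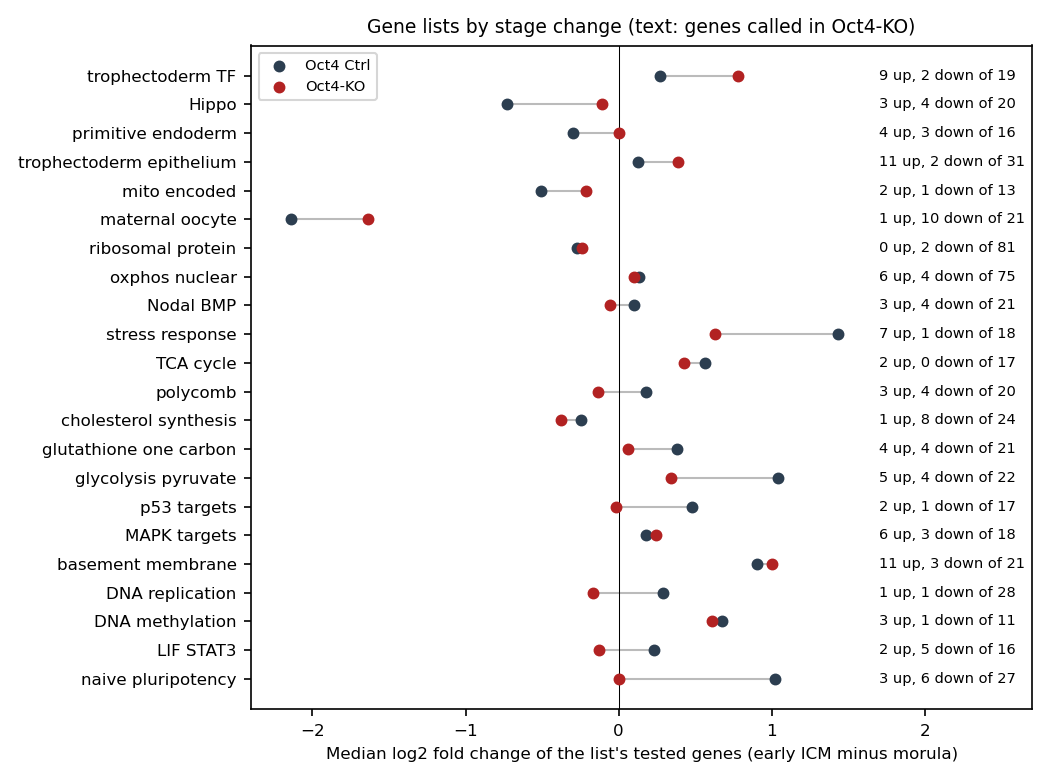
Median log2 fold change from morula to early ICM of the tested genes of 22 lists (horizontal axis), in Oct4 Ctrl (dark) and Oct4-KO (red), joined by a line and ordered by the median difference; the text at the right counts the genes called in Oct4-KO. Naive pluripotency stands at 1.02 in Ctrl and 0 in Oct4-KO, while maternal and oocyte genes lie at -2.14 and -1.64.

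Of 18 stress genes, 7 rose and 1 fell in Oct4-KO (median 0.628), beside 12.7% and 13.6% of all genes, and 11 rose and 2 fell in Ctrl (median 1.43). Hspa5, the chaperone BiP of the endoplasmic reticulum, rose by 2.46 and 1.67, and fell by 2.13 in Sox2 Ctrl. Xbp1, a factor of the unfolded protein response, went from a median of 28 CPM (18.6 to 48.1) to 147 CPM (75.1 to 397) in Oct4-KO and stayed at 32.2 and 31.6 CPM in Ctrl (difference 2.48, SE 0.43, adjusted p = 4.4e-05). Of 17 p53 genes, 2 rose and 1 fell in Oct4-KO, and 3 and 1 in Ctrl. Pmaip1, the BH3 protein NOXA, rose by 2.82 and 1.65, while Trp53 itself had a change of -0.62 in Oct4-KO and 0.85 in Ctrl (difference -1.47, adjusted p = 0.0107).

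The counts of the next lists stand beside 12.7% of all genes higher and 13.6% lower in Oct4-KO, and 3.29% called for the difference. Of 28 DNA replication genes, 1 rose and 1 fell in Oct4-KO, and 3 and 1 in Ctrl, but 3 differences were called with the Oct4-KO change the lower, among them Mcm6 of the replicative helicase (-0.26 in Oct4-KO and 1.00 in Ctrl, difference -1.26, adjusted p = 0.000133), whose change in Sox2 Ctrl was -0.09. Lig1, DNA ligase I, was kept (1.35 and 1.44). Of 11 genes of DNA methylation and its removal, 3 rose and 1 fell in Oct4-KO, and 4 rose in Ctrl. Tet2, which oxidises methylcytosine, rose from a median of 57.9 CPM (25.3 to 73.5) to 236 CPM (183 to 320) in Oct4-KO, and reached about the Ctrl level from a lower start, since the Ctrl medians were 150 and 230 CPM (difference 1.52, SE 0.23, adjusted p = 3.05e-06). Of 20 Polycomb genes, 3 rose and 4 fell in Oct4-KO, near the shares over all genes, and 5 fell in Ctrl. Pcgf6, of a variant Polycomb complex, was kept (-2.11 and -1.87). Of 81 ribosomal protein genes, 2 fell in Oct4-KO and 5 in Ctrl, among them Rpl39l (-1.49 and -2.10), and none rose, a smaller share than over all genes in either direction. The 75 nuclear genes of oxidative phosphorylation had 6 rises and 4 falls in Oct4-KO, again smaller shares than over all genes, and 7 and 3 in Ctrl, led by Ndufs4 of complex I (1.84 and 2.02). The 13 mitochondrially encoded genes had 2 rises and 1 fall in each, with mt-Co1, a cytochrome oxidase subunit, up by 1.53 in Oct4-KO. None of the ribosomal, oxidative phosphorylation and mitochondrial genes had a called difference. The 1 cumulus gene tested and the 4 Y-linked genes had no call in either genotype. At least 10 Y-linked UMIs were found in 4 of the 8 Oct4-KO morulae and 5 of the 8 Oct4-KO early ICMs.

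All adjusted p-values here are from the edgeR quasi-likelihood fit over all genes tested. The labels do not say which embryos were littermates, so the p-values measure the spread between these embryos.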

How the data were processed

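RNA-seq of single mouse embryos was made with a 3′ tag library carrying unique molecular identifiers. According to the methods, the authors took UMIs from the reads with UMI-tools, trimmed with Cutadapt, mapped with TopHat2 to mm10, assigned reads to genes with featureCounts (GENCODE vM23) and counted unique transcripts per gene with TRUmiCount. Tool versions and the strand setting are not given in the sources used here. The authors deposited UMI counts per gene and embryo (29022 genes), which were used as deposited, and rlog values on the log2 scale made with DESeq2, which served as an alternative. Groups came from the labels.

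Counts were scaled by TMM and fitted with edgeR 4.0.16 (R 4.3.3) by quasi-likelihood for 96 Ctrl and KO embryos in 12 groups. A gene was tested where 50% or more of the embryos of any stage had a UMI of it (14053 genes), with Benjamini-Hochberg adjustment over all of them. The contrasts were early ICM minus morula in each genotype, and the difference of these contrasts. Standard errors came from the curvature of the fit. Counts per 1e6 UMIs (CPM) used TMM-scaled totals, and intervals of UMI ratios are exact and cover counting error only. Fold changes of genes with few UMIs depend on the prior count of edgeR, and ratios of UMI sums are given for them. Alternatives were other scalings, filters and thresholds, thinned counts, DESeq2 1.42.0, limma 3.58.1 on rlog values, a sex indicator, leaving out single embryos, and the replicate number as a block. The scripts were checked on simulated data.

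Named genes were a fixed set of 12, the 10 top rises and 10 top falls without overlap of the stages (called, and 20 CPM or more on average where higher), the 8 highest and 8 lowest called differences, the 6 top kept genes in each direction, and from each gene list up to 2 called rises, 2 falls and 2 differences, passing over predicted genes, clones and pseudogenes outside the lists (differences and kept genes reached 20 CPM on average in 1 of the 4 Oct4 groups); further genes were added after their values were seen (Fgf4, Klf2 and Sap30). A gene named under an earlier part was not repeated. Of the genes that met the rule through a gene list, some stand in the counts of their list alone, and 1 is not reported here. The members and lists (naive pluripotency, LIF and STAT3, Nodal and BMP, formative epiblast, trophectoderm factors, trophectoderm epithelium, Hippo, primitive endoderm, basement membrane, MAPK, maternal, glycolysis, citric acid cycle, cholesterol, glutathione, stress, p53, DNA replication, DNA methylation, Polycomb, ribosomal, oxidative phosphorylation, mitochondrial, cumulus and Y-linked) were chosen with earlier results of these data known. The chi-square per gene between replicates was at least 2.41 in the Oct4-KO morulae and 3.17 in the early ICMs, so no 2 embryos were taken for 1 library. Promoters were taken from RefSeq (GRCm38.p6; the first entry of each symbol). MWT embryos and the ERCC spike-ins were not analysed here, and the late ICMs entered only the scaling, the filter on low counts and the shared estimate of the spread.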

Additional observations from a re-analysis of the deposited data

Results flagged for a closer look

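Levels of the named genes outside the gene lists, UMI totals and stage positions were examined in each Oct4-KO stage, 120 groups of 8 embryos, of which 18 held an embryo whose gap to the nearest other exceeded Dixon's 95% critical share of the range of the group; chance flags about 1 in 20. In the Oct4-KO morulae the flagged embryos were the highest for Pou5f1 (3.44 CPM), Utf1 (106), Il6st (1.09), Aqp8 (1.15), Mical1 (5.04), Klf6 (23.1), Glrx (40), Lrp2 (195) and Ak7 (130). In the Oct4-KO early ICMs they were the highest embryos for Pou5f1 (4.66 CPM), Esrrb (72.5), Il6st (1.2), Hnf4a (1.2), Slc22a5 (255), Exoc3l4 (2.33), Uncx (2.9), Nppb (53.6) and Ak7 (113). For Pou5f1, Il6st, Aqp8, Hnf4a, Exoc3l4 and Uncx such a level stands for a few UMIs.

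The stage change differed between Oct4-KO and Oct4 Ctrl, by the test of the difference, in 42 of 150 genes named by rule. The rule itself picked genes for a called difference, so this share follows from the choice. Over all genes tested it was 3.29%. Values are the difference of log2 fold changes, Oct4-KO minus Ctrl. It was higher in 18: Car4 (4.14), Pianp (4.01), Lrp2 (3.73), Nppb (3.31), Arl4d (3.31), Gsta2 (3.15), Htra1 (3.09), Ak7 (2.72), Xbp1 (2.48), Fabp3 (2.16), Gata3 (1.97), Stard4 (1.86), Slc2a3 (1.82), Spred1 (1.78), Wwc1 (1.63), Tet2 (1.52), Pim1 (1.43) and Gss (1.14). It was lower in 24: Bmp4 (-6.43), Hnf4a (-5.32), Upp1 (-5.02), Tdgf1 (-5.0), Fn1 (-4.79), Ldha (-4.76), Bcl3 (-4.34), Morc1 (-4.30), Rnf125 (-4.01), Pecam1 (-3.63), Utf1 (-3.06), Ezr (-2.28), Uhrf1 (-2.0), Id3 (-1.98), Ahcy (-1.85), Itga5 (-1.81), Tdh (-1.77), Etv5 (-1.77), Socs2 (-1.51), Esrrb (-1.49), Trp53 (-1.47), Gins2 (-1.46), Mcm6 (-1.26) and Idh1 (-1.13).

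Leaving out 1 of the 16 Oct4-KO embryos ended the call of the difference for 11 of these genes. The weakest values were 1.99 for Nppb without embryo 5 of the early ICMs, -1.28 for Socs2 without embryo 2 of the morulae, -5.82 for Bmp4, -3.71 for Ldha and -1.73 for Uhrf1 without embryo 5 of the morulae, and -1.96 for Ezr without embryo 7 of the morulae. They were 1.52 for Wwc1 and 0.99 for Gss without embryo 5 of the early ICMs, -1.59 for Itga5 without embryo 10 of the early ICMs, 1.63 for Spred1 without embryo 2 of the early ICMs and 1.40 for Stard4 without embryo 18 of the early ICMs. Bmp4 had 4 and 0 UMIs in the Oct4-KO groups and Ldha 38 and 3. Gss, Gins2 and Bmp4 overlap a gene on the other strand (Acss2, Gse1 and Gm15222).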

How the results depend on the processing

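Other scalings, DESeq2, no filter, the 32 embryos of the line alone and a sex indicator kept the counts of calls within 1.5 times (3437 to 3701 in Oct4-KO, 3782 to 4091 in Oct4 Ctrl, 399 to 552 for the difference). With totals alone the median change of all genes moved to 0.0615 in Oct4-KO and 0.101 in Oct4 Ctrl, and the kept genes were 150 rising and 94 falling. A mean of at least 5 CPM gave 2410 calls in Oct4-KO and 2646 in Oct4 Ctrl, with 2288 genes unresolved. Counts thinned to the lowest total gave 281 called differences, 119 weaker and 5 stronger genes. With no fold change minimum there were 6338 and 6748 calls and 1231 kept, 355 weaker and 83 stronger genes. The glmTreat test against a 2-fold change, which asks for more, gave 1664 and 1931 calls and 23 called differences, and no classes were computed under it. With limma on the rlog values there were 1638 and 1935 calls, 10 stronger and 1683 unresolved genes, and the Epha4 difference became -1.37. Scored on the Oct4 Ctrl stage genes, the Oct4-KO early ICMs stood at 0.708. The 5 CPM filter and the rlog table tested fewer genes and thinning left fewer counts; for the other shifts the cause was not tested.

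Leaving out 1 Oct4-KO embryo gave 3527 to 3732 calls in Oct4-KO, 4064 to 4083 in Oct4 Ctrl, 399 to 461 called differences, 232 to 255 kept, 161 to 189 weaker, 16 to 23 stronger and 4029 to 4058 unresolved genes. Over all alternatives and named genes, the Oct4-KO change kept its side of the threshold and direction in 4157 values, lost the call in 142, gained it in 31 and reversed in 2; for the difference these counts were 4182, 126, 23 and 1.

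Same-numbered embryos did not deviate together (correlations -0.0458 to 0.0168 in 3 Oct4-KO pairs and 0.0256 to 0.06 in 3 Ctrl pairs), so the numbers were not taken to pair embryos. With the replicate number as a block, in the paired embryos alone, there were 2252 calls in Oct4-KO, 2802 in Oct4 Ctrl, 392 called differences and 107 kept, 161 weaker, 25 stronger and 2038 unresolved genes. The same embryos without the replicate block gave 2286 calls in Oct4-KO and 2891 in Oct4 Ctrl, 126 called differences and 99 kept, 56 weaker, 1 stronger and 2142 unresolved genes. The Oct4-KO change of Pecam1 turned from -1.25 to 0.64 with the block and 0.54 without it in these embryos, and was called in neither.

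At this depth 1 UMI stood for about 1 CPM, and differences of genes with few UMIs were often not resolved.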
